A study of Arabidopsis thaliana with 24 samples.

Results

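The genes described here are the 9 that encode the COP1/SPA complex and its closest partners in light signalling. They are the bZIP transcription factors *HY5* (AT5G11260) and *HYH* (AT3G17609), the ubiquitin ligase subunit *COP1* (AT2G32950), the kinase-like *SPA1* (AT2G46340), *SPA2* (AT4G11110), *SPA3* (AT3G15354) and *SPA4* (AT1G53090), and the repressors *RUP1* (AT5G52250) and *RUP2* (AT5G23730). Each was found by its locus identifier in a table of 30237 rows for 29920 genes, and each of the 9 had 1 row. The 9 were chosen with earlier results of these data known, so their shares set against all expressed genes are descriptions. All 9 were among the 19473 rows taken as expressed (called expressed genes below), which were those above 4.5 on the log2 scale at 4 or more of the 12 time points of either genotype.

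In darkness the COP1/SPA complex marks HY5 and other growth regulators for degradation, and light acting through phytochromes, cryptochromes and the UV-B receptor UVR8 relieves this. HY5 and its close homolog HYH then switch on genes of greening and of flavonoid synthesis. *RUP1* and *RUP2* are themselves HY5 targets, and their products return UVR8 to its inactive form.

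Whole seedlings of the wild-type accession Col and of *rve8-1*, a single T-DNA insertion allele of the clock gene *RVE8* that lengthens the circadian period, were grown for 7 days in cycles of 12 h of light and 12 h of darkness and then released into continuous light. Pools of about 50 plants were harvested every 4 h from 72 to 116 h of free run, with 1 AGRONOMICS1 tiling array per genotype and harvest, 24 in all. Both genotypes were in the same light at every harvest, so that lights-on and lights-off played no part in the times compared. Circadian time (CT) 0 is the subjective dawn at 72 and 96 h, and the arrays of the 4th and 5th day of free run (below, day 4 and day 5) at 1 CT were taken as 2 replicates. Each genotype was followed as a single time course, and nothing states that the days came from separate sowings, so the tests measure the spread between 2 pools harvested 24 h apart.

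The label of the mutant was checked on its targeted gene. *RVE8* had a log2 level from 4.28 to 7.37 on the Col arrays and from 3.17 to 4.70 on those of *rve8-1*, which was the lower in 12 of 12 pairs harvested together. The shoot marker *RBCS1A*, the small subunit of Rubisco, lay between 13.49 and 13.88 on every array, and the root marker *PRP3* between 6.13 and 7.71, while *PLT1*, a marker of the root tip, lay between 3.63 and 4.64 and did not count as expressed. Median levels of the arrays ran from 4.90 to 5.0, and centring each array on its median changed no call among the 9 genes in the tests between genotypes. In a whole seedling, fewer cells that express a gene and less RNA in each cell cannot be told apart.

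When arrays were matched by harvest time, 5 of the 9 genes differed between the 2 genotypes, against 7.91% of all expressed genes (limma moderated F test over the 6 times of day, Benjamini-Hochberg adjusted p under 0.05). They were *HYH*, *RUP2*, *SPA4*, *SPA3* and *RUP1*. In each of these the sign of the difference turned within the day, and none had a different mean level. *HY5*, *COP1*, *SPA1* and *SPA2* did not pass.

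**Figure D1:**
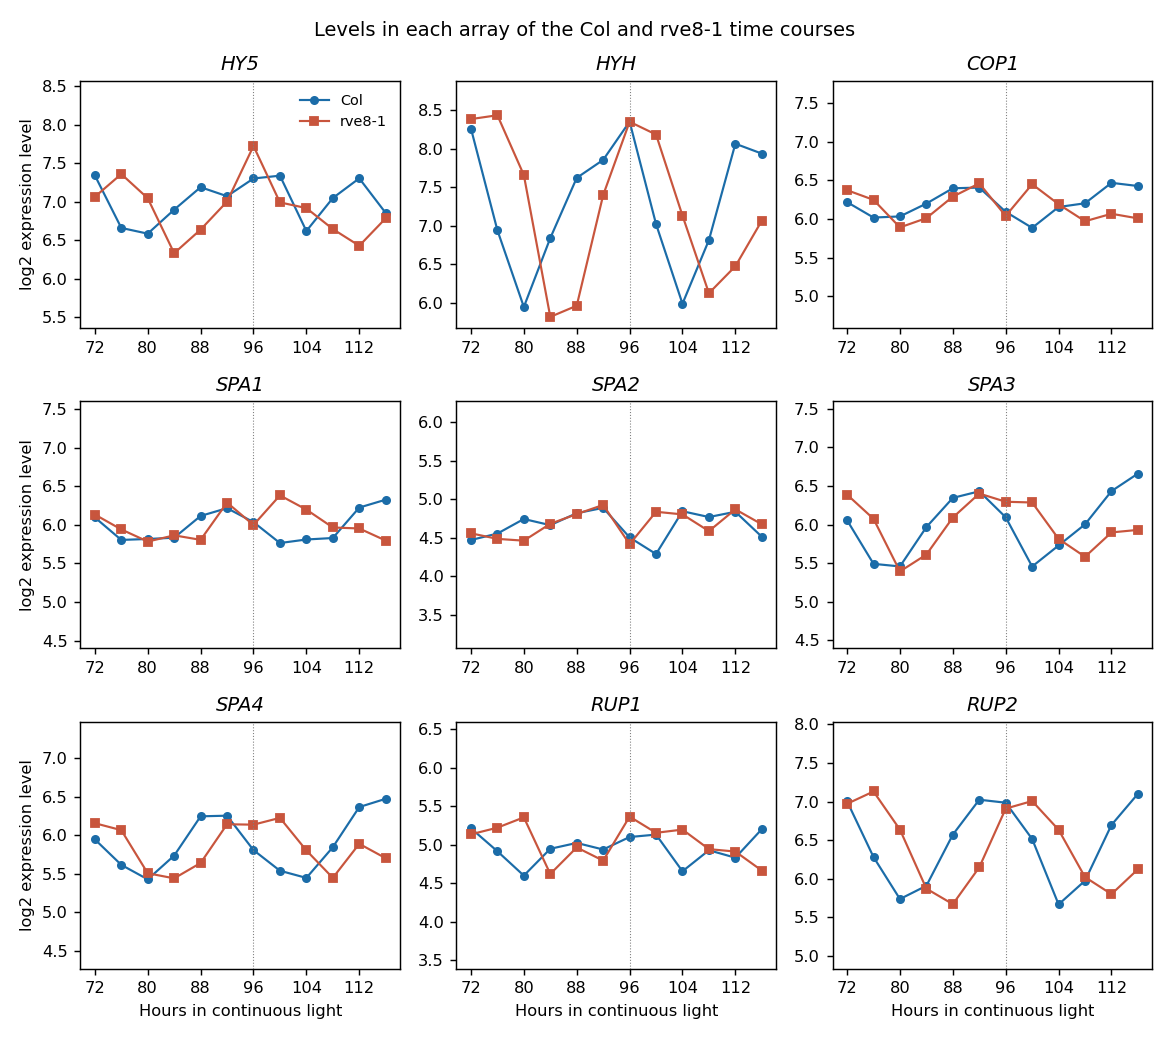
The log2 level of each of the 9 genes on each array is plotted against hours in continuous light, with Col as circles and *rve8-1* as squares, a dotted line at 96 h and the same span of 3.2 log2 units on every axis. *HYH* and *RUP2* swing most, and their *rve8-1* curves trail those of Col, while *SPA2* stays between 4.29 and 4.92.

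*HYH*, the homolog that shares functions with *HY5*, had the widest daily range. Over day 4, from 72 to 92 h, its Col levels were 8.26, 6.94, 5.95, 6.84, 7.62 and 7.85, and over day 5, from 96 to 116 h, they were 8.35, 7.02, 5.99, 6.81, 8.06 and 7.94. In *rve8-1* the day 4 levels were 8.38, 8.43, 7.66, 5.82, 5.96 and 7.40, and those of day 5 were 8.35, 8.18, 7.13, 6.13, 6.48 and 7.07. The genotypes were thus alike at CT0, when both were at or near their maximum, and the trough fell at CT8 in Col and at CT12 in *rve8-1*. Top and bottom of the day differed 5.05-fold in Col and 5.25-fold in *rve8-1*.

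At CT4 and CT8 *HYH* was higher in *rve8-1*, by 2.51-fold and 2.69-fold (log2 differences of 1.33 and 1.43, SE 0.20). At CT16 it was 3.08-fold lower in *rve8-1* (log2 difference -1.62, SE 0.20). At every time but CT0 both *rve8-1* arrays lay on the same side of both Col arrays. In the limma F test the adjusted p was 3.71e-05, and the same call was made with each of the 24 arrays left out in turn.

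*HY5*, the factor that gives the pathway its main output, followed a similar course over a smaller range. Its Col levels were 7.34, 6.66, 6.59, 6.90, 7.19 and 7.07 on day 4 and 7.30, 7.34, 6.62, 7.05, 7.30 and 6.85 on day 5. In *rve8-1* they were 7.06, 7.36, 7.04, 6.33, 6.64 and 7.00, and then 7.72, 6.99, 6.92, 6.65, 6.43 and 6.78. The days disagreed at CT4, where Col had 6.66 on day 4 and 7.34 on day 5, a gap of 0.68 that is close to the whole range of its means in Col, 0.72. The largest difference was at CT16, where *rve8-1* was 1.64-fold lower (log2 difference -0.71, SE 0.22) and its 2 arrays lay below both Col arrays, but over the day the adjusted p was 0.164 (limma).

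*HY5* and *HYH* moved together over the 24 arrays (Pearson r = 0.82 across arrays, which share genotype and time of day, given as a description). With *HYH* the mean difference of *HY5* shared its sign at each of the 6 times of day, positive at CT0, CT4 and CT8 and negative at CT12, CT16 and CT20. For *HY5* the days went opposite ways at CT0 (-0.28 on day 4 and 0.42 on day 5) and at CT4 (0.70 and -0.35). The amplitude of a fitted 24 h cosine, which is the distance from the mean to the peak, was 0.22 (SE 0.11) for *HY5* in Col and 0.45 (SE 0.09) in *rve8-1*. For *HYH* it was 1.05 (SE 0.14) and 1.29 (SE 0.10). Differences of amplitude were not tested.

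*RUP2*, a repressor of UVR8 that also restrains flowering, had the rhythm closest to a cosine among the 9. Its Col levels were 7.00, 6.28, 5.74, 5.91, 6.57 and 7.02 on day 4 and 6.99, 6.52, 5.67, 5.97, 6.70 and 7.10 on day 5. The *rve8-1* levels were 6.97, 7.13, 6.64, 5.87, 5.67 and 6.15 on day 4 and 6.91, 7.01, 6.63, 6.02, 5.80 and 6.12 on day 5. The maximum lay at CT20 in Col and at CT4 in *rve8-1*, and the minimum moved from CT8 to CT16. A 24 h cosine accounted for 97.4% of the variance over the Col arrays and 98.5% over the *rve8-1* arrays, with an amplitude of 0.71 in both (SE 0.04 and 0.03).

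*RUP2* was higher in *rve8-1* by 1.91-fold at CT8 (log2 difference 0.93, SE 0.10). At CT16 and CT20 its log2 differences were -0.90 and -0.93 (SE 0.10). The curves crossed at CT0 and CT12, where the differences were -0.05 and 0.00. Its adjusted p, 8.74e-06 (limma), was the smallest of the 9, and the same call was made with each array left out.

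*RUP1*, the paralog with an overlapping role, had a range of 1.44-fold in Col and 1.46-fold in *rve8-1*. Its Col levels were 5.21, 4.91, 4.60, 4.95, 5.02 and 4.94 on day 4 and 5.10, 5.13, 4.66, 4.93, 4.83 and 5.20 on day 5, and the *rve8-1* levels were 5.13, 5.22, 5.35, 4.62, 4.96 and 4.79, then 5.36, 5.15, 5.20, 4.94, 4.91 and 4.66. The difference rested mainly on CT8, the trough in Col, where *rve8-1* was 1.57-fold higher (log2 difference 0.65, SE 0.13) and the values of the genotypes did not overlap. The adjusted p over the day was 0.0444 (limma), and this call was lost, with an adjusted p of at most 0.150, when any 1 of 18 arrays was left out: Col_72, Col_76, Col_80, Col_84, Col_88, Col_96, Col_104, Col_108, Col_112, Col_116, *rve8-1*_76, *rve8-1*_80, *rve8-1*_88, *rve8-1*_92, *rve8-1*_100, *rve8-1*_104, *rve8-1*_112 or *rve8-1*_116. It was also lost with day 4 or day 5 as a replicate block, which left 4 genes called, and under 5 other settings of the fit.

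*SPA3* and *SPA4*, the close pair of SPA proteins that act mainly in light-grown seedlings and adult plants, had nearly one time course (Pearson r = 0.93 over the 24 arrays). For *SPA3* the Col levels were 6.06, 5.49, 5.46, 5.97, 6.35 and 6.43 on day 4 and 6.10, 5.46, 5.73, 6.0, 6.43 and 6.66 on day 5. In *rve8-1* they were 6.39, 6.08, 5.39, 5.61, 6.09 and 6.40, and then 6.30, 6.29, 5.82, 5.58, 5.90 and 5.93. Its maximum lay at CT20 in Col and CT0 in *rve8-1*, and its minimum at CT4 in Col and CT12 in *rve8-1*. At CT4 it was 1.63-fold higher in *rve8-1* (log2 difference 0.71, SE 0.16), and from CT12 to CT20 it was lower, with log2 differences of -0.39, -0.39 and -0.38. Its adjusted p was 0.0265 (limma), and the call was lost, at no more than 0.0794, without Col_76, Col_84, Col_100, Col_108, Col_112, *rve8-1*_84, *rve8-1*_100 or *rve8-1*_108.

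The Col levels of *SPA4* were 5.95, 5.62, 5.43, 5.74, 6.24 and 6.25 on day 4 and 5.81, 5.54, 5.45, 5.84, 6.36 and 6.47 on day 5. In *rve8-1* they were 6.16, 6.07, 5.51, 5.44, 5.64 and 6.14 on day 4 and 6.14, 6.22, 5.80, 5.45, 5.89 and 5.70 on day 5. *SPA4* too was highest at CT20 in Col and at CT0 in *rve8-1*, and it was lowest at CT8 and CT12. It was 1.48-fold higher in *rve8-1* at CT4 (log2 difference 0.57, SE 0.15) and 1.45-fold lower at CT16 (-0.54, SE 0.15). The adjusted p was 0.0111 (limma), and *SPA4* was called with each array left out.

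*COP1* and *SPA1*, the ligase and the partner best known from dark-grown seedlings and far-red light, had smaller ranges, of 1.40-fold each in Col. *COP1* lay between 5.89 and 6.47 in Col (median 6.20) and between 5.89 and 6.46 in *rve8-1* (median 6.13). For *SPA1* the lowest, median and highest levels were 5.76, 5.93 and 6.33 in Col and 5.78, 5.96 and 6.38 in *rve8-1*. The genotypes therefore covered the same span of levels in both genes. Their largest differences, at CT4, were 0.40 (SE 0.15) for *COP1* and 0.38 (SE 0.17) for *SPA1*, higher in *rve8-1* on both days, and over the day the adjusted p values from limma were 0.305 and 0.358.

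For this pair the days lay further apart in *rve8-1* than in Col. *COP1* at CT4 had 6.02 and 5.88 in Col on days 4 and 5, against 6.25 and 6.45 in *rve8-1*. At CT20 the values were 6.41 and 6.43 in Col, against 6.46 and 6.01 in *rve8-1*. For *SPA1* at CT20 they were 6.22 and 6.33 in Col, against 6.29 and 5.80 in *rve8-1*. The *rve8-1* arrays at CT20 thus lay near Col on day 4 and lay below it on day 5. The median gap between the days over the 6 times was 0.10 in Col and 0.26 in *rve8-1* for *COP1*, and 0.05 and 0.28 for *SPA1*. The gap was wider in *rve8-1* for 8 of the 9 genes and for 70.7% of all expressed genes, with a median over those genes of 0.14 in Col and 0.20 in *rve8-1*.

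*SPA2*, which acts mainly in dark-grown seedlings, lay closest to the threshold for expression. It ranged from 4.29 to 4.89 in Col and from 4.42 to 4.92 in *rve8-1*, and it was above 4.5 at 10 and 9 of the 12 time points. Its largest difference was 0.24 at CT4 (SE 0.16), and the adjusted p of 0.767 (limma) was the highest of the 9. The values of the genotypes overlapped at each of the 6 times of day.

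**Figure D2:**
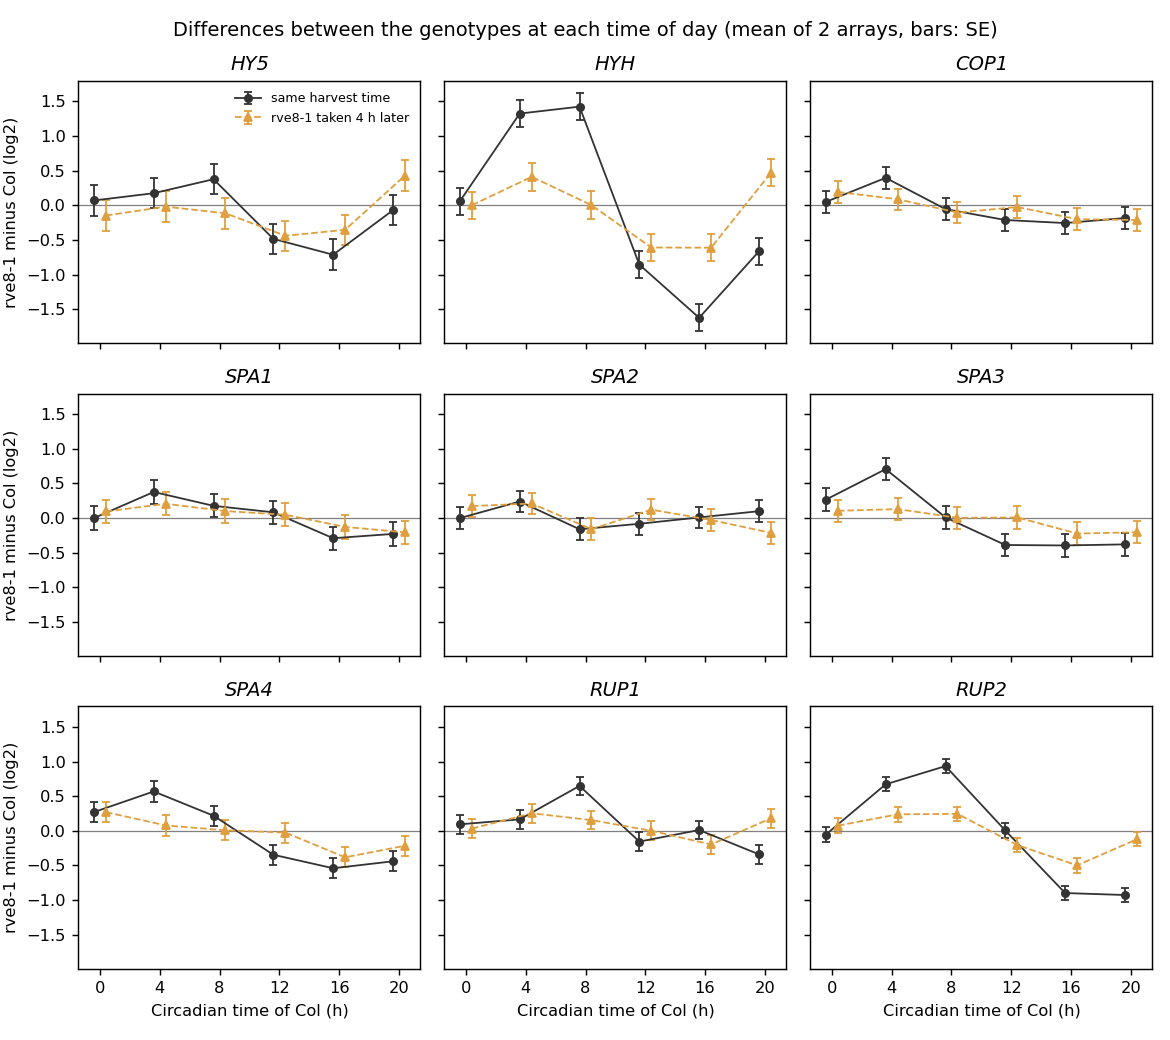
The difference in log2 level, *rve8-1* minus Col, is shown for each of the 9 genes at the 6 circadian times of Col, with means of 2 arrays per genotype and bars of 1 SE from limma. Circles compare arrays of the same harvest time and triangles compare Col with *rve8-1* taken 4 h later, where the largest difference of each gene is smaller in all 9 panels.

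The mean over the 6 times of day was compared next, since it is little altered by a rhythm that is merely late. No gene of the 9 differed (limma, adjusted p from 0.488 to 0.900), against 1.07% of all expressed genes. At an unadjusted p under 0.05 it was 0 of 9, against 20.1% of all expressed genes. The estimates, *rve8-1* minus Col on the log2 scale, ran from -0.11 (SE 0.09) for *HY5* to 0.07 (SE 0.05) for *RUP1*, with a median of -0.04. Over all expressed genes the median was 0.00. With SEs of 0.04 to 0.09, this does not show that the levels were equal.

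A test of whether the genotype difference itself varied with time of day called the same 5 genes, against 7.11% of all expressed genes (limma F test of the interaction). The adjusted p was 6.29e-06 for *RUP2*, 2.40e-05 for *HYH*, 0.00766 for *SPA4*, 0.0185 for *SPA3* and 0.0377 for *RUP1*. That of *SPA3* rose above 0.05, to at most 0.0709, without Col_76, Col_100 or *rve8-1*_100. That of *RUP1* did so, to at most 0.131, without any 1 of 13 arrays, namely Col_72, Col_80, Col_84, Col_88, Col_96, Col_104, Col_108, Col_112, Col_116, *rve8-1*_76, *rve8-1*_80, *rve8-1*_100 and *rve8-1*_116.

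With each *rve8-1* group set against the Col group 4 h earlier in the day, 0 of the 9 genes passed, against 0.0616% of all expressed genes (limma F test). The day was wrapped for this, so that Col at CT20 was set against *rve8-1* at CT0. The lowest adjusted p was 0.232, for *RUP2*, and 2 genes, *RUP2* and *HYH*, had an unadjusted p under 0.05 (0.00124 and 0.00565), as had 13.1% of all expressed genes. The largest difference of each gene over the day was smaller at this offset than at the same harvest time in all 9, and its median over them fell from 0.65 to 0.25 on the log2 scale. The largest that remained for *HYH* was -0.61 (SE 0.20) at CT12 and CT16 of Col, and for *RUP2* -0.50 (SE 0.10) at CT16. Differences of the other sign remained as well. They were 0.41 at CT4 and 0.47 at CT20 for *HYH*, and 0.24 at CT4 and CT8 for *RUP2*. When each genotype was described by a 24 h cosine instead, *RUP2* passed this test (adjusted p = 0.0204).

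Variation over the day was then tested within each genotype. In Col, *HYH*, *SPA3*, *SPA4* and *RUP2* varied with time of day, 4 of 9 genes against 11.8% of all expressed genes, with adjusted p values from 1.85e-06 for *RUP2* to 0.00121 for *SPA4* (limma F test). In *rve8-1*, *HY5* (0.0414) and *RUP1* (0.0210) passed as well, 6 of 9 against 14.4%. That of *HY5* was lost without 18 of the 24 arrays, at no more than 0.107: Col_72, Col_80, Col_84, Col_88, Col_92, Col_96, Col_104, Col_108, Col_112, Col_116, *rve8-1*_76, *rve8-1*_80, *rve8-1*_84, *rve8-1*_88, *rve8-1*_96, *rve8-1*_108, *rve8-1*_112 and *rve8-1*_116. It was also lost with the replicate block, which left 5. *SPA4* was lost without *rve8-1*_84 (0.0530) and *RUP1* without *rve8-1*_116 (0.0594). A gene that passes in one genotype and not in the other is not thereby shown to differ, and the interaction test given above did not call *HY5*.

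JTK_CYCLE, a rank test against cosine-like templates with periods of 20, 24 or 28 h, was applied to the time courses to find rhythmic genes. The study used this method too. For its final list of clock-controlled genes, however, it kept those that COSOPT, another rhythm test, also called on the joined time courses. COSOPT was not run here. In each series fewer genes were called here than the study reports, and the reason was not tested. The calls and non-calls below are therefore not those of the study. In Col JTK_CYCLE called *COP1*, *SPA1*, *SPA3*, *SPA4* and *RUP2*, 5 of 9 against 7.54% of all expressed genes, with adjusted p values from 0.0196 to 0.0413. In *rve8-1* it called *HYH* (0.0342) and *RUP2* (0.0252), 2 of 9 against 3.09%. With 12 points per genotype these p values lie close to the smallest the test can give. Leaving out 1 array ended both calls in *rve8-1*, whichever it was, but then 0 of all 19473 expressed genes were called. These losses therefore say nothing about the 2 genes in particular. In Col it left 0 to 5 of the 9 genes and 0 to 1281 of all expressed genes, against 1469 with every array. There, only Col_104 could be left out without losing any of the 5, while *RUP2* alone also remained without Col_72 and Col_84.

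The Col and *rve8-1* courses were therefore also joined, with *rve8-1* started 4 h later, into a series of 24 points. Here 7 of 9 genes were called rhythmic, against 23.7% of all expressed genes. The adjusted p values were 8.42e-07 for *RUP2*, 2.51e-06 for *HYH*, 2.80e-05 for *SPA3*, 5.40e-05 for *SPA4*, 0.0191 for *HY5*, 0.0286 for *COP1* and 0.0418 for *SPA1*. *RUP1* (0.0704) and *SPA2* (0.201) did not pass. Calls of *COP1* were lost without Col_76, Col_80, Col_88, Col_92, Col_100, Col_112, Col_116, *rve8-1*_72, *rve8-1*_80, *rve8-1*_84, *rve8-1*_92 or *rve8-1*_108 (at most 0.0652). Those of *SPA1* were lost without Col_76, Col_80, Col_88, Col_92, Col_100, Col_104, Col_108, Col_112, Col_116, *rve8-1*_88, *rve8-1*_100, *rve8-1*_104 or *rve8-1*_108 (at most 0.125). *RUP1* was gained without Col_92 (0.0432) or *rve8-1*_80 (0.0445).

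**Figure D3:**
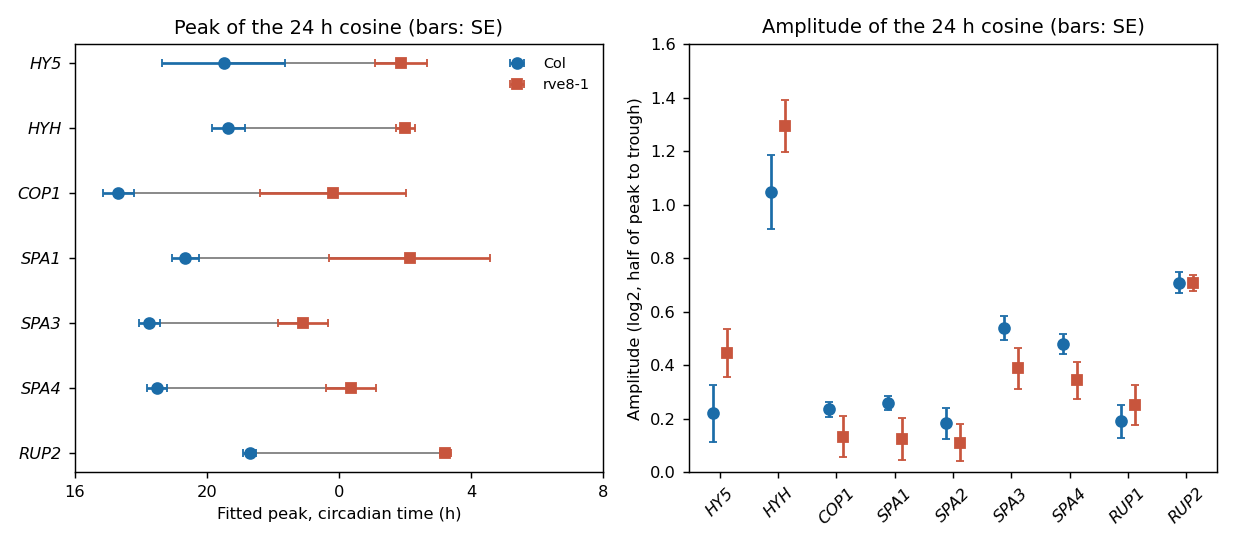
On the left, the peak of a fitted 24 h cosine is given in circadian hours for the 7 genes rhythmic in the joined time course, with Col as circles, *rve8-1* as squares, a line between them for the delay and bars of 1 SE. On the right, the amplitude in log2 units is given in the same way for all 9 genes, where *HYH* is largest and *RUP2* is 0.71 in both genotypes.

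The fitted peaks in Col fell before subjective dawn, from CT17.3 for *COP1*, CT18.3 for *SPA3*, CT18.5 for *SPA4* and CT19.4 for *SPA1* to CT20.5 for *HY5*, CT20.7 for *HYH* and CT21.3 for *RUP2*. In Col the subunits of the ligase among these genes thus peaked before the transcription factors and *RUP2*. The SE of *HY5*, 1.85 h, however spans the gap from *SPA1* to it. In *rve8-1* the peaks lay at CT22.9 for *SPA3*, CT23.8 for *COP1*, CT0.37 for *SPA4*, CT1.88 for *HY5*, CT2.01 for *HYH*, CT2.14 for *SPA1* and CT3.23 for *RUP2*. There *SPA1* came after *HY5* and *HYH*, so the order of Col did not hold. Measured in SEs of the gap, neighbours in these orders lay at most 1.70 SE apart in Col, from *SPA4* to *SPA1*, and at most 1.38 SE apart in *rve8-1*, from *SPA4* to *HY5*.

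The fitted peak of all 7 genes was later in *rve8-1*. For *HY5* and *HYH*, however, the highest mean of the arrays lay at CT0 in both genotypes. The 7 genes were chosen by the joined series, which already sets *rve8-1* 4 h behind Col, so the choice itself favours genes with a delay. The delay was 4.66 h (SE 0.83) for *SPA3*, 5.36 h (SE 0.58) for *HYH*, 5.36 h (SE 2.01) for *HY5*, 5.87 h (SE 0.82) for *SPA4*, 5.93 h (SE 0.26) for *RUP2*, 6.49 h (SE 2.25) for *COP1* and 6.78 h (SE 2.47) for *SPA1*, with a median of 5.87 h. When each gene was fitted with its own best period, the median was 3.73 h. The delay was then 2.41 h for *SPA3*, 2.60 h for *SPA1*, 3.08 h for *COP1* and 6.17 h for *HY5*. Over the 4 alternative fits (best period, each day alone, linear trend removed) *HYH* stayed at 4.85 h or more and *RUP2* at 5.49 h or more. For scale, the morning clock genes *CCA1* and *LHY* were delayed by 4.59 h (SE 0.39) and 4.58 h (SE 0.44), and the evening gene *TOC1* by 3.75 h (SE 0.45), all with the 24 h period. No test of the delay was made, because each genotype had 1 time course.

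Fitted to each day alone, *RUP2* was delayed by 5.83 h on day 4 and 6.06 h on day 5, and *HYH* by 5.37 and 5.28 h. These were the steadiest estimates of the set. *SPA3* moved from 3.32 to 6.75 h and *SPA4* from 4.53 to 7.53 h. *COP1* gave 3.23 h on day 4 and -11.9 h on day 5, and *SPA1* gave 2.33 and 10.7 h. The 24 h cosine described *COP1* and *SPA1* poorly in *rve8-1*. It accounted for 25% and 21.5% of their variance there, against 88.2% and 90.6% in Col. Their amplitudes were 0.24 (SE 0.03) and 0.26 (SE 0.03) in Col and 0.13 (SE 0.08) for both in *rve8-1*. The delays of this pair over both days therefore rest on a weak fit. For both genes the best JTK_CYCLE template had a period of 28 h in *rve8-1*, where neither was called, and 24 h in Col. With the period fixed at 24 h, the poor fit does not show a weaker rhythm in *rve8-1*.

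Among the 36 pairs of the 9 genes, the highest correlations of levels were those of *HYH* with *RUP2* and of *SPA3* with *SPA4* (r = 0.93 each over the 24 arrays). Within *COP1*, *SPA1*, *SPA3* and *SPA4*, r ran from 0.77 to 0.93, and within *HY5*, *HYH*, *RUP1* and *RUP2* from 0.66 to 0.93. The groups were not apart, since *SPA4* had an r of 0.75 with *HYH* and 0.68 with *RUP2*. *SPA2* ran against *HY5* (r = -0.44) and *RUP1* (r = -0.56). These correlations are descriptions over arrays that share genotype, harvest and hybridisation. Over all expressed genes, the closest pattern to *RUP2* was that of *AFR* (r = 0.98), an F-box gene of phytochrome A signalling, followed by *ERD9* (r = 0.97), and the closest to *HYH* were At1g65870 (r = 0.98) and At4g24700 (r = 0.98). *SPA4* was nearest to *ABCB26* (r = 0.97) and *NAPRT2* (r = 0.94), *SPA3* to At4g18810 (r = 0.95) and *AAE18* (r = 0.95), and *HY5* to *RHA2A* (r = 0.91) and At1g68660 (r = 0.91). For *COP1* they were *PMI1* (r = 0.90) and *SRFR1* (r = 0.89), for *SPA1* *KT2/3* (r = 0.88) and At5g55620 (r = 0.88), for *SPA2* *UBP24* (r = 0.86) and At5g60390 (r = 0.85), and for *RUP1* At2g05910 (r = 0.82) and At4g01390 (r = 0.81).

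Genes that act with these 9 were examined in 7 lists covering receptors, other parts of the ubiquitination machinery, substrates, cofactors and targets. These lists too were chosen with earlier results of these data known. Of 59 genes listed, 58 were expressed, and 25 of these differed at the same harvest time, against 7.91% of all expressed genes. At the 4 h offset 0 of the 58 did (limma), and for the mean level 0 of the 58 did. At an unadjusted p under 0.05 these counts were 13 (22.4%, against 13.1% of all expressed genes) and 15 (25.9%, against 20.1%). The interaction test called 23 of the 58 (limma), against 7.11% of all expressed genes.

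**Figure D4:**
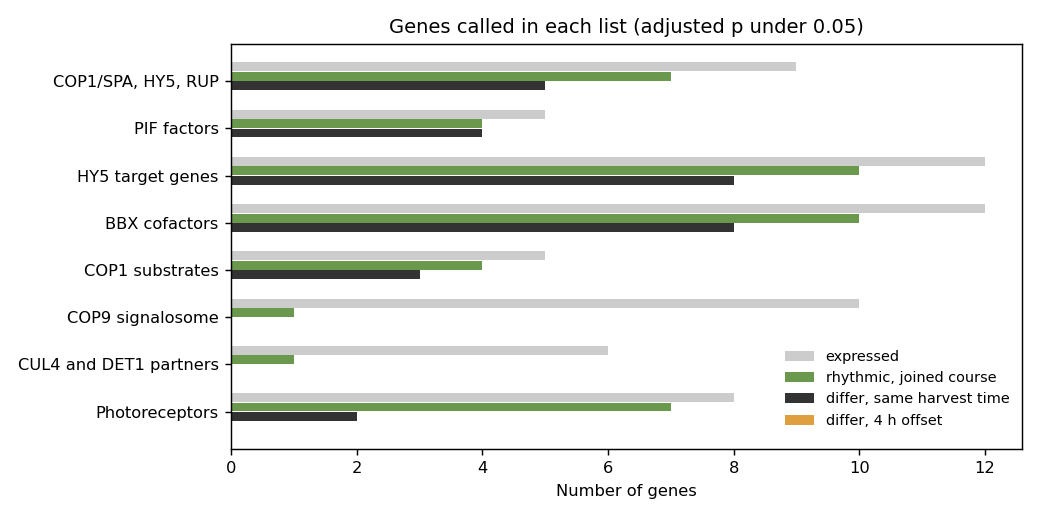
Horizontal bars give the number of genes in each list that were expressed, that were rhythmic in the joined time course, and that the tests at equal harvest time and at the 4 h offset called different, at an adjusted p under 0.05. No list has a gene called at the offset, so that bar is missing throughout, and the COP9 signalosome and the CUL4 and DET1 partners have no gene called at the same harvest time.

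Of 6 expressed genes for CUL4, DDB1, DET1 and their partners, which form ligases with COP1 or beside it, 0 were called at the same harvest time (limma, 1 at an unadjusted p under 0.05), and 0 of 10 subunit genes of the COP9 signalosome, which regulates cullin ligases, were called (0 at an unadjusted p under 0.05, which 23.8% of all expressed genes reached). Among the 8 photoreceptor genes 2 were called, *CRY2*, a blue light receptor, and *UVR8*, against 7.91% of all expressed genes. Both were lower in *rve8-1* at CT8, with Col at 8.09 ± 0.05 and *rve8-1* at 7.48 ± 0.10 for *CRY2*, and Col at 8.45 ± 0.07 and *rve8-1* at 7.93 ± 0.03 for *UVR8* (mean ± SD of 2 arrays, as for the list genes that follow). Their highest means fell at CT8 in Col and at CT12 in *rve8-1*, but neither passed the interaction test (limma, adjusted p = 0.0568 and 0.0878). Their mean log2 differences, -0.18 (SE 0.05) and -0.14 (SE 0.04), did not pass either (limma, adjusted p = 0.0935 and 0.119). *RUP2*, whose product acts on UVR8, was at its lowest at CT8 in Col, and a link was not tested.

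Of 5 genes whose products are COP1 substrates, *GI*, *ELF3* and *HFR1* were called, against 7.91% of all expressed genes. Their adjusted p values from limma were 0.000247, 0.00723 and 0.0368. *GI* and *ELF3* are clock components. *HFR1*, a bHLH factor of shade and far-red responses, was 5.14 ± 0.00 in Col and 6.20 ± 0.05 in *rve8-1* at CT12. The BBX genes, B-box factors that bind HY5 or COP1, had 8 of 12 called, against the same 7.91%. *BBX32* was lower in *rve8-1* at CT16, 4.39 ± 0.08 against 6.41 ± 0.16 in Col, and *BBX28* was lower at CT20, 3.98 ± 0.46 against 5.95 ± 0.20. *BBX25* and *BBX24* were higher in *rve8-1*, 9.09 ± 0.30 against 7.45 ± 0.02 at CT8 and 9.85 ± 0.22 against 8.54 ± 0.02 at CT12.

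Of 12 genes known as HY5 targets in flavonoid synthesis and light protection, 8 were called, against 7.91% of all expressed genes. The flavonol regulator *MYB111* was 6.36 ± 0.06 in *rve8-1* and 5.01 ± 0.23 in Col at CT0, *FLS1*, flavonol synthase, was 8.42 ± 0.14 and 7.59 ± 0.08 at CT4, and the anthocyanin gene *DFR* was 9.62 ± 0.05 and 7.56 ± 0.43 at CT4. *LDOX*, which acts after *DFR*, was 5.83 ± 0.81 in *rve8-1* and 7.87 ± 0.36 in Col at CT16. *HY5* and *HYH* were also below Col then, but at CT0, where *MYB111* differed, their log2 differences were only 0.07 and 0.06. Whether the targets followed *HY5* or *HYH* was not tested. For the PIF genes, whose products compete with HY5 at some promoters, 4 of 5 were called, against 7.91% of all expressed genes. These were *PIF5*, *PIF4*, *PIF1* and *PIF7*, all higher in *rve8-1* at their largest difference. All 4 also passed the interaction test (limma, adjusted p from 3.06e-05 to 0.0293). None of the 4 had a different mean level (limma, adjusted p from 0.116 to 0.668). *PIF4* had 6.85 ± 0.30 in *rve8-1* and 4.30 ± 0.11 in Col at CT16, and *PIF5* had 7.71 ± 0.10 and 5.86 ± 0.06 at CT12. At CT16, then, *HYH* was below and *PIF4* above Col in the mutant, and a link between them was not tested.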

How the data were processed

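The deposited log2 values were RMA expression levels that the authors made from AGRONOMICS1 arrays, with RMA named in the submitters' notes. The table held 30237 rows for 29920 genes, and tests ran on rows. Row identifiers end in a suffix whose meaning is not given in the sources used here (X for *HYH* and *SPA4*, 0 for the other 7 members). RMA fits a summary over the probes of a gene and normalizes the arrays together, so levels of different genes were not compared. A single row stood for each member. Array number limits the precision. No other columns of per-sample values were present (0). Groups were 2 genotypes by 6 times of day, with day 5 as replicate of day 4 as in the study's methods, and limma 3.58.1 (R 4.3.3) was fitted to all 24 arrays and all 19473 expressed genes (12 groups, 12 residual degrees of freedom). JTK_CYCLE and cosine fits were computed in Python 3.11.15 with numpy 2.4.6. The exact null of JTK_CYCLE allows for ties within its templates. The null without ties was to be the main one, but in simulated data it found no rhythm, and the exchange was made after the data were examined. All fits were tested on simulated data.

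The members and lists were chosen with earlier results of these data known. Named were the 9 members, *RVE8*, up to 4 genes of each list with the smallest p among those called at the same harvest time, the 2 expressed genes most correlated with each member, and marker genes. The main fits did not pair groups by day. The deviations between the days had a median correlation of 0.06 (-0.34 to 0.54) over 66 pairs of groups. Since 25 were over 0.1, some groups did change alike from day 4 to day 5, and the day was used as a block in an alternative fit. The alternatives were other filters, scalings, variance priors and models, and each array left out.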

Additional observations from a re-analysis of the deposited data

Results flagged for a closer look

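For 5 of the 9 genes the difference between *rve8-1* and Col was itself different between times of day, by the limma F test of the interaction (Benjamini-Hochberg over all expressed genes). *RUP2* had an adjusted p of 6.29e-06, with a difference of 0.93 at CT8 and -0.93 at CT20. *HYH* had 2.40e-05, with 1.43 at CT8 and -1.62 at CT16. *SPA4* had 0.00766, with 0.57 at CT4 and -0.54 at CT16, and *SPA3* had 0.0185, with 0.71 at CT4 and -0.39 at CT16. *RUP1* had 0.0377, with 0.65 at CT8 and -0.34 at CT20. Groups held 2 arrays each, too few to look for single outlying arrays.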

How the results depend on the processing

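Of the 9 genes, 5 were called at the same harvest time, and without the expression filter 3 were (*SPA3* 0.0609 and *RUP1* were lost). With 1 array left out, 3 to 5 were called there and for genotype by time of day, 4 for time of day in Col, 4 to 6 for it in *rve8-1*, and 0 at the 4 h offset and for the mean level. At the offset, the 24 h cosine per genotype called 1. By the same cosine, *SPA1* gained an interaction call (adjusted p = 0.0458) and *RUP1* lost its own (0.0565) and that at the same harvest time (0.0725). *RUP1* was also lost at the same harvest time with no filter (0.10), quantile normalization (0.0614), a trend and robust prior (0.0633) and no moderation (0.0501), and for the interaction with no filter (0.0866) and the trend and robust prior (0.0566). The day as replicate block left 4 genes at the same harvest time (without *RUP1*) and 5 for time of day in *rve8-1* (without *HY5*), and changed no other limma call. JTK_CYCLE in Col called 0 with the null for untied templates and 0 with a linear trend removed (0 to 5 with 1 array left out), 4 without the filter (*COP1* lost, 0.0617) and 6 with the 24 h period only (*HYH* gained, 0.0273). In *rve8-1* it called 0 under both, 1 without the filter (*HYH* lost, 0.0523), 3 with the 24 h period only (*HY5* gained, 0.0366) and 0 with any array left out. With the untied null or the trend removed, 0 of all 19473 expressed genes were called in either genotype. The same held in *rve8-1* with any array left out, so these losses are not particular to the 9 genes. In the joined series it called 4 with the untied null, 6 without the filter (*SPA1* lost, 0.0620), 7 with the 24 h period only (*RUP1* gained, 0.0245, and *SPA1* lost, 0.0720) and 5 to 7 with 1 array left out. The untied null does not allow for the ties in the templates, and for the other settings the cause was not tested. The median delay was 3.73 h with a best-fitting period for each gene and genotype, which is not quite the same measure. It was 4.53 h from day 4 alone, 6.06 h from day 5 alone, and 5.28 to 6.15 h with 1 array left out. There were only 2 arrays per group and 12 points per course, and *SPA2* passed no rhythm test under any setting.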
